A study of Mus musculus with 5 samples.

Results

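A set of 7 transcription factors that mark positions along the head-to-tail axis of the embryo, and that lie outside the Hox clusters, were followed while mouse embryonic stem cells became motor neurons. They were Otx2, Gbx2, En2, Egr2 (Krox20), Cdx1, Cdx2 and Cdx4, chosen by name as a gene group, with earlier results of these data known, and they were 7 of the 19897 genes that could be named on the array. Each had 1 probe, so the group held 7 of 26300 named probes.

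The series held 5 samples of wild-type cells, all labelled male, with 1 single-colour Agilent microarray for each time point. ES was the untreated stem cell culture. Day2 was embryoid bodies (EBs, floating aggregates of differentiating stem cells) collected 8 h after retinoic acid (RA) was added, Day3 was EBs after 1 day of RA, Day4 was EBs after 2 days of RA, and Day7 was a culture labelled as motor neurons after 5 days of RA. The treatment note of the same labels gives RA together with Shh between day 2 and day 5, which is shorter than the 5 days named for Day7, and the methods name the smoothened agonist SAG where the labels name Shh. All 4 later samples came from cultures treated in this way, and no untreated EBs of the same age were analysed here, so time in culture and RA cannot be told apart. There were no replicates, so no p-value or error between samples can be given, and a change of 2-fold was used as a fixed rule of size.

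The embryo is divided from head to tail by transcription factors with sharp borders. Otx2 holds the forebrain and midbrain and Gbx2 the anterior hindbrain, and the 2 repress each other where they meet, at the isthmus, near which the engrailed factors En1 and En2 are made. Egr2 is made in 2 segments of the hindbrain. The caudal-type factors Cdx1, Cdx2 and Cdx4 act at the tail end, where they help to switch on Hox genes. RA pushes neural tissue towards hindbrain and spinal cord, and Cdx1 is a known direct RA target. Several of these factors are also used by other cells: Otx2 in the early epiblast and in stem cells, Cdx2 in trophectoderm and gut, and Egr2 in Schwann cells and as an immediate early gene.

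All levels below are log2 intensities after quantile normalization, which gives all arrays the same distribution of signals. A probe was "well above background" by the flag of the scanner software, and a probe without it has only an upper limit on that array. Such a level was replaced by the lowest signal among probes well above background on that array, or its own signal if higher, and the change is then written as "at least". Levels of different probes cannot be compared with each other. As each sample was a whole culture, fewer cells of a type and less RNA per cell cannot be told apart.

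The Day2 array stood apart from the others. Of its probes 86.7% were well above background, against 57.5% to 65.7% on the other arrays, and so were 64.6% of its 96 ERCC probes (spike-in controls with no mouse sequence), against 4.17% to 9.38% elsewhere. The 95th percentile of the ERCC probes on that array was a log2 level of 7.39, and it is given below for Egr2 and Cdx2, which lay under it. Other Day2 levels printed below that are smaller than 7.39 lay under it too, as for Cdx4, Foxd3 and Nkx1-2. Day7 was the only array on the other slide, so for Day7 the slide cannot be told apart from the time point. Its controls differed too: the median log2 signal of the E1A spike-in spots was 7.37 on Day7 and between 15.7 and 16.4 on the other arrays. The part of this difference in the Day7 values was not tested. The labelled cell types were borne out by their markers in part. All 5 motor neuron genes with a named probe (Isl1, Lhx3, Chat, Slc18a3 and Slc5a7) were raised from ES to Day7, with a median log2 change of 6.06, while the motor neuron gene Mnx1 had no named probe. Of 7 stem cell markers 5 were lowered at Day7, and Nanog was not, at a log2 level of 9.20 in ES and 8.80 in Day7. Over all genes, 23.2% were raised and 24.4% lowered at least 2-fold from ES to Day7.

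Otx2, the homeodomain factor of forebrain and midbrain, gave the deepest measured fall of the group. Its log2 level was 12.55 in ES, 8.76 in Day2, 6.10 in Day3, 5.39 in Day4 and 7.48 in Day7, and it was well above background on all 5 arrays. ES was highest, the level was lower at each time point up to Day4, and Day7 lay between Day2 and Day3. Before normalization the same spots read 8218, 629, 43.7, 21.7 and 240 intensity units. Otx2 was 13.9-fold below ES after 8 h of RA, 87.7-fold below ES in Day3 and 143-fold below ES in Day4. Of the 13792 genes well above background in both ES and Day3, and of the 14139 in both ES and Day4, only 1 gene each fell further. Under the other scalings the log2 change ran from −7.55 to −5.10 in Day3 and from −8.56 to −5.50 in Day4, with the smallest falls after the normexp background correction. From Day4 to Day7 the signal rose 4.28-fold (2.10 on the log2 scale), and it still lay 33.5-fold below ES. That late rise was 0.96 on the log2 scale, just under 2-fold, when normexp replaced the scanner's own background subtraction, and 3.47 without normalization. The Otx2 probe had a single spot per array, and probes of like brightness with several spots had a median spot SD between 0.049 and 0.23 (log2), which covers error within an array only.

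Otx2 is also an epiblast gene, so the list of 4 epiblast genes (Fgf5, Pou3f1, Dnmt3b and Otx2 itself) is given beside it. From ES to Day2, 2 of the 4 were lowered at least 2-fold, and from ES to Day3, Day4 and Day7 all 4 were. Of all genes with a value, 11.3%, 10.2%, 14.2% and 24.4% were lowered in these comparisons. The linear signal summed over the 4 was 161480 in ES, 89526 in Day2, 23719 in Day3, 10751 in Day4 and 7594 in Day7, most of it from Dnmt3b, at a log2 level of 16.98 in ES and 13.27 in Day4. From Day4 to Day7, 2 of the 4 were raised (Otx2 itself and the POU factor Pou3f1, each by 2.10 on the log2 scale) and Dnmt3b was lowered, with a median log2 change of 1.38. Its part in the Otx2 signal was not tested.

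**Figure D1:**
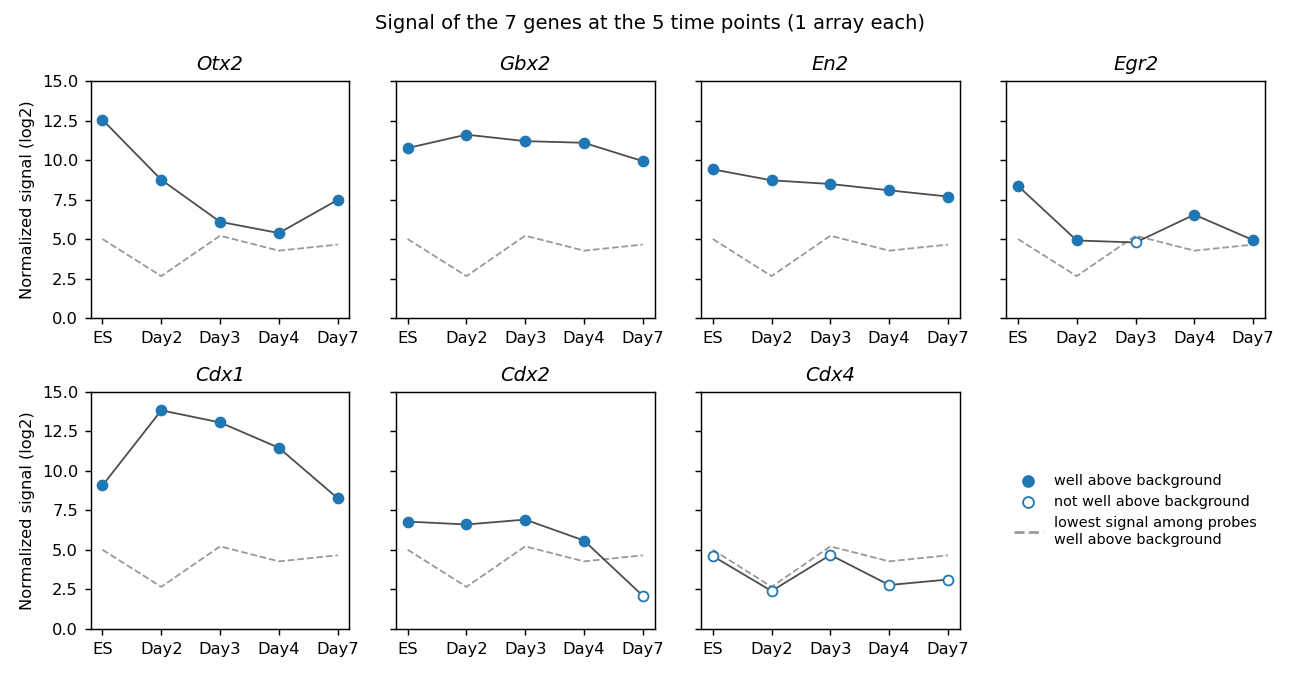
Normalized log2 signal (vertical axis) of each of the 7 genes at the 5 time points (horizontal axis), 1 array each. Filled points were well above background, open points were not, and the dashed line is the lowest signal among probes well above background on each array. Otx2 falls from 12.55 in ES to 5.39 in Day4, Cdx1 peaks at 13.82 in Day2, and Cdx4 is open on all 5 arrays.

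The sequence before the Otx2 start sites was searched because homeodomain factors commonly bind the core TAATTA. RefSeq start sites of GRCm38.p6 gave 12 windows for 5 of the 7 genes (Otx2, Gbx2, Egr2, Cdx2 and Cdx4), each read over the 250 bases before the start and on both strands. Windows of Cdx1 and En2 were not searched here. TAATTA was present in 4.84% of all 32851 such windows of the genome. Of these 5 genes, Otx2 alone held it, in 2 of its 4 windows, and 1 window had it 3 times. They stood 234, 174 and 154 bases before that start, on the minus strand at chr14:48665326-48665355 and chr14:48665256-48665285, and capitals mark the core:
Otx2, farther site: cacgacggcctgTAATTAagggacgtgtgc
Otx2, both nearer sites: taTAATTAattctcggacgaggTAATTAtt
The sequence is shown as a description of the locus, and binding was not measured. The RA receptor core site AGGTCA, present in 14.0% of all windows, was in none of the 12 windows, and so its direct repeat with 5 bases between, which 0.00913% of all windows held, was absent too. This covers 250 bases only and leaves out Cdx1. These motifs and those given below were picked out of 19 after their matches had been seen.

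Gbx2, the homeodomain factor that borders Otx2, stayed bright throughout. Its log2 level was 10.76 in ES, 11.61 in Day2, 11.20 in Day3, 11.09 in Day4 and 9.93 in Day7. Day2 was highest and Day7 lowest, and the whole range was 3.20-fold, against 143-fold for Otx2. The change from ES was 0.85 (Day2), 0.44 (Day3), 0.33 (Day4) and −0.83 (Day7) on the log2 scale, none of it 2-fold. The direction for Day3 and Day4 depended on the scaling: without normalization these changes were −0.15 and −0.74. From Day4 to Day7 Gbx2 fell 2.24-fold, and without normalization the same step was 0.17 on the log2 scale, the opposite direction. Probes of like brightness with several spots had a median spot SD of 0.043 to 0.074.

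En2, an engrailed factor of the midbrain and anterior hindbrain, declined slowly. Its log2 level was 9.41 in ES, 8.72 in Day2, 8.49 in Day3, 8.09 in Day4 and 7.69 in Day7. ES was highest and each later time point lay lower than the one before it. The change from ES was −0.69 and −0.93 on the log2 scale for Day2 and Day3, short of 2-fold, and then a fall of 2.51-fold for Day4 and 3.29-fold for Day7. The Day4 change was −1.33 on the log2 scale and −2.30 without normalization. With the arrays aligned on their 75th percentile, Day3 was just past 2-fold, at −1.02.

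En2 was the one gene of the group whose probe was printed 10 times on each array, so its error within an array could be measured. The SD of the log2 signal over the 10 spots was 0.039 in ES, 0.087 in Day2, 0.11 in Day3, 0.078 in Day4 and 0.067 in Day7. These are several times smaller than the changes from ES, although spots of 1 array say nothing of the spread between cultures. Before normalization the spots ran from 744 to 818 in ES, from 575 to 679 in Day2, from 240.5 to 317 in Day3, from 141 to 167 in Day4 and from 269 to 305 in Day7. The spots of Day3 and Day7 overlapped, and no other pair of arrays did. The place of Day7 depended on the scaling: it was the lowest array after quantile normalization, 0.39 below Day4 on the log2 scale, and 0.86 above Day4 without normalization.

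**Figure D2:**
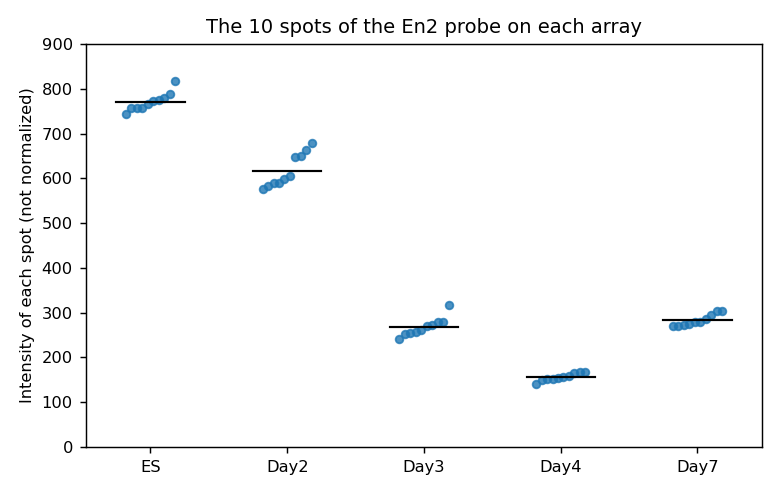
Intensity before normalization between arrays (vertical axis, from 0) of each of the 10 spots of the En2 probe on the 5 arrays (horizontal axis). The black line is the geometric mean of the 10 spots. The ES spots lie between 744 and 818 and the Day4 spots between 141 and 167.

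Egr2, the zinc-finger factor of 2 hindbrain segments, was highest in ES. Its log2 level was 8.37 in ES, 4.92 in Day2, 4.79 in Day3, 6.55 in Day4 and 4.94 in Day7, and in Day3 it was not well above background. Day4 stood above its neighbours on either side, and below ES. Egr2 fell 11.0-fold from ES to Day2, or −3.45 on the log2 scale, and its Day2 signal lay under the ERCC percentile of 7.39. Every other scaling tried gave a smaller fall to Day2, between −2.16 and −1.93 on the log2 scale. Egr2 was at least 8.90-fold below ES in Day3, 3.54-fold below ES in Day4 and 10.8-fold below ES in Day7. These log2 changes were −3.15, −1.82 and −3.43, and under the other scalings they ran from −4.04 to −1.96, from −2.83 to −1.29 and from −3.80 to −1.86. From Day3 to Day4 it rose at least 2.52-fold, and from Day4 to Day7 it fell 3.06-fold. Both steps were under 2-fold after the normexp correction, at 0.66 and −0.56 on the log2 scale, and the later one also without normalization, at −0.62. Probes of like brightness had a median spot SD of up to 0.38, on Day3.

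Because Egr2 is also a Schwann cell gene, the list of Schwann and neural crest genes is given beside it. Of 5 genes, Egr2 included, 4 were lowered from ES to Day2 and 3 from ES to Day7, and the linear signal summed over the 5 was 2294 in ES and between 724 and 1134 on the later arrays. Of all genes with a value, 11.3% were lowered from ES to Day2 and 24.4% from ES to Day7. The neural crest factor Foxd3 had log2 levels of 10.37 in ES and 6.21 in Day2. Its part and that of the list in the Egr2 signal was not tested.

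Egr2 has 5 RefSeq windows, and 3 of them, which overlap, held a pair of motifs shown here because few windows have either. The octamer ATGCAAAT, the sequence bound by POU factors such as Oct4, was in 1.6% of all windows. The CArG box, which serum response factor binds at immediate early genes, was in 1.47% of all windows and also in a 4th Egr2 window. Both were on the plus strand, at chr10:67537731-67537760 and chr10:67537787-67537816, 127 and 72 bases before the start, and capitals mark the motif:
Egr2, octamer: gccaagcccgtATGCAAATtggccatgtga
Egr2, CArG box: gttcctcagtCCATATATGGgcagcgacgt
The caudal-type motif TTTATG, present in 10.8% of all windows, also stood in these 3 Egr2 windows, on the other strand, and in no window of Otx2, Gbx2, Cdx2 or Cdx4. Binding of none of these factors was measured.

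Cdx1, a caudal-type factor and RA target, was the single gene of the group that rose at least 2-fold above ES. Its log2 level was 9.07 in ES, 13.82 in Day2, 13.06 in Day3, 11.45 in Day4 and 8.26 in Day7, and it was well above background on all 5 arrays. Day2 was highest, each later array was lower, and Day7 lay below ES. Before normalization the spots read 599, 19299, 6710, 1607 and 433 intensity units, so the order of the levels was the same. Cdx1 was 27.0-fold above ES after 8 h of RA, which placed it 28th from the top of the 14469 genes well above background on both arrays. It was 15.9-fold above ES in Day3 and 5.22-fold above ES in Day4, and Day7 was −0.81 from ES on the log2 scale, short of 2-fold. It fell 3.04-fold from Day3 to Day4 and 9.13-fold from Day4 to Day7. Without normalization the Day4 change from ES was 1.42 on the log2 scale in place of 2.38, and the step from Day4 to Day7 was −1.89 in place of −3.19. In every alternative scaling tried the Day2 and Day3 levels were more than 10-fold above ES, with log2 changes of 4.51 to 5.01 and 3.49 to 4.02. At these levels probes with several spots had a median spot SD between 0.039 and 0.075.

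Cdx2, the caudal-type factor of trophectoderm, tail bud and gut, was present at a low signal up to Day4 and not well above background in Day7. Its log2 level was 6.79 in ES, 6.60 in Day2, 6.91 in Day3, 5.59 in Day4 and 2.09 in Day7, and in Day7 it was not well above background. The levels in ES, Day2 and Day3 lay within 0.31 of each other, Day4 was lower, and Day7 was the lowest. No rise with RA was seen after quantile normalization, where the change from ES was −0.18 for Day2 and 0.13 for Day3. The other scalings gave 0.05 to 0.84 for Day2, so its direction was not settled, and the Day2 signal lay under the ERCC percentile. Cdx2 fell 2.30-fold from ES to Day4 and 2.51-fold from Day3 to Day4, and both falls were under 2-fold after the normexp correction, at −0.53 and −0.56 on the log2 scale. In Day7 it was at least 4.39-fold below ES, a log2 bound of −2.13, which was −1.10 after the normexp correction. Probes of like brightness had a median spot SD of up to 0.20.

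Since Cdx2 is a marker of trophectoderm, the 8 genes of that list, Cdx2 included, are given beside it. From ES to Day4, of 7 with a value, 2 were raised and 3 were lowered, with a median log2 change of −0.83, and from ES to Day7, of 6 with a value, 1 was raised and 3 were lowered. Of all genes with a value, 15.4% were raised and 14.2% lowered from ES to Day4, and 23.2% and 24.4% from ES to Day7. Tpbpa was not well above background on any array and Elf5 in Day2 and Day4 only, whereas Eomes had log2 levels of 8.19 in ES and 5.12 in Day7. The linear signal summed over the 8 genes was 32677 in ES, 24398 in Day2, 41662 in Day3, 76365 in Day4 and 15825 in Day7. The Day4 sum was mostly Krt18, a keratin of simple epithelia, at a log2 level of 16.13. The part of the list in the Cdx2 signal was not tested. Of the endoderm and gut genes, 3 of 5 with a value were raised from ES to Day3 and again from ES to Day4, and none was lowered. In Day7, 1 was raised (Foxa1, by 5.37 on the log2 scale) and 2 were lowered relative to ES, and from Day4 to Day7, 1 was raised and 3 were lowered. Over all genes, 14.2% were raised and 10.2% lowered from ES to Day3, and 17.8% and 18.1% from Day4 to Day7. Nothing is read from counts in lists of this size.

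Cdx4, the X-linked caudal-type factor of the tail bud, was not well above background on any array. Its measured log2 signal was 4.60 in ES, 2.40 in Day2, 4.68 in Day3, 2.78 in Day4 and 3.12 in Day7, each under the lowest signal among probes well above background there. No order of the time points and no fold can be given, and the arrays set only an upper limit on Cdx4.

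Cdx2 and Cdx4, unlike in their signals, shared a motif before their start. Each has 1 RefSeq window and each held the octamer ATGCAAAT, which with Egr2 makes 3 of the 5 genes that had windows. It stood 147 bases before the Cdx2 start, on the minus strand at chr5:147307364-147307421, and 93 bases before the Cdx4 start, on the plus strand at chrX:103321280-103321337. Capitals mark the octamer:
Cdx2: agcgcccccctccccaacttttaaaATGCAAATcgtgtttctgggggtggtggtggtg
Cdx4: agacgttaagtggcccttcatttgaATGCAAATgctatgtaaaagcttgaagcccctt
A match is a run of letters and not a measured site.

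Set side by side, the 7 genes lost signal more often than they gained it. Cdx4 had no value, so each count is out of 6. From ES to Day2, 1 gene (Cdx1) was raised and 2 (Otx2 and Egr2) were lowered at least 2-fold, where 8.82% of all genes with a value were raised and 11.3% lowered. From ES to Day3 the same genes were raised and lowered, against 14.2% and 10.2% of all genes. From ES to Day4, 1 (Cdx1) was raised and 4 (Otx2, En2, Egr2 and Cdx2) were lowered, against 15.4% and 14.2%. From ES to Day7 none was raised and the same 4 were lowered, against 23.2% and 24.4%. Gbx2 passed 2-fold in none of the 4. The median log2 change of the 6 genes was −0.44, −0.40, −1.26 and −1.93 in these comparisons, beside 0, 0.06, 0.01 and −0.07 over all genes with a value. The 4 comparisons share the ES array.

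The balance over all genes moved with the scaling. Of all genes past 2-fold from ES to Day2, 43.9% were raised after quantile normalization, 70.2% with the arrays shifted to their 75th percentile and 82.9% without normalization. From ES to Day3 these shares were 58.1%, 45.9% and 16.2%, and from ES to Day4 they were 52.0%, 43.7% and 8.12%. Without normalization the median of all genes moved by 0.20, −0.63 and −1.07 on the log2 scale in these 3 comparisons. The members counted as raised or lowered from ES were those above in each of these scalings, except that En2 was also lowered in Day3 with the 75th percentile shift (−1.02) and without normalization (−1.53).

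**Figure D3:**
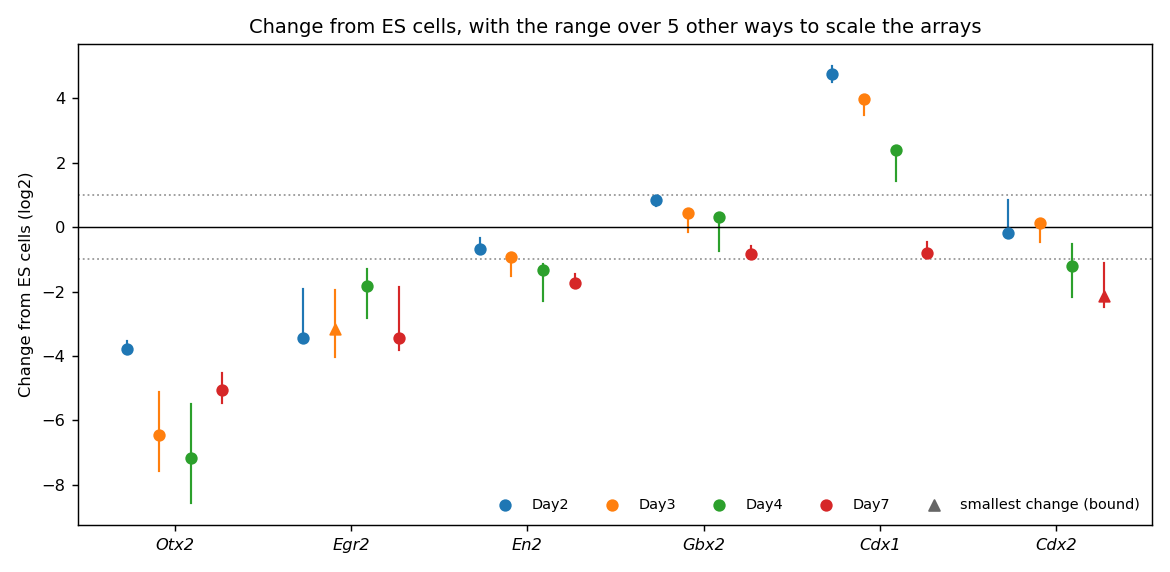
Log2 change from ES (vertical axis) of 6 genes (horizontal axis) in Day2, Day3, Day4 and Day7, 1 array each. Points are the values after quantile normalization. Triangles are bounds on that scale where 1 array was not well above background, and other scalings can give smaller bounds. Bars run over the reported value and the other scalings tried and are no measure of replicate error. In Day2 the points of En2, Egr2 and Cdx2 lie outside the range of the other scalings. Dotted lines mark 2-fold. Otx2 and Egr2 lie below the lower line at all 4 time points, and Cdx1 lies above the upper line in Day2, Day3 and Day4.

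Between neighbouring time points 5 of the factors passed 2-fold at least once. From Day2 to Day3, Otx2 alone was lowered at least 2-fold (6.32-fold, or −2.66 on the log2 scale, and −3.85 to −1.56 under the other scalings) and none was raised, against 7.76% of all genes lowered and 13.0% raised. Egr2, which had no fold for this step, was lowered at least 1.38 on the log2 scale with the 75th percentile shift and 2.12 without normalization, where Gbx2, En2, Cdx1 and Cdx2 were lowered too. From Day3 to Day4, Egr2 was raised and Cdx1 and Cdx2 were lowered, where 3.62% of all genes were raised and 4.85% lowered. From Day4 to Day7, Otx2 was raised and Gbx2, Egr2 and Cdx1 were lowered, where 17.8% and 18.1% of all genes were. The share of genes past 2-fold that were raised from Day2 to Day3 was 62.6% after quantile normalization, 25.5% with the 75th percentile shift and 3.41% without normalization, and from Day4 to Day7 the shares were 49.5%, 44.0% and 94.0%.

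Other genes of each region were described by lists that leave out the 7 factors. Of all genes with a value, 14.2% were raised and 10.2% lowered from ES to Day3, and 23.2% and 24.4% from ES to Day7, so nothing is read from counts of 1 to 3 genes in lists of this size. Of 14 forebrain genes, 8 had a value from ES to Day3, of which 2 were raised and 1 lowered, and without normalization 2 and 4. Fezf2, a forebrain zinc-finger factor, rose at least 4.91-fold, the LIM factor Lhx2 rose by 1.80 on the log2 scale, and Hesx1, an early forebrain homeobox gene, fell by 1.96. From ES to Day7, 3 of 8 were raised and 3 lowered, and 6 were lowered with a different detection flag of the scanner software. The eye field gene Six6 rose at least 8.04-fold. Otx2 was lowered in both comparisons, beside 1 of 8 and 3 of 8 genes of this list after quantile normalization.

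Of 10 midbrain and isthmus genes, 9 had a named probe and 7 a value, which for Pax8 was only a bound. From ES to Day3, 1 was raised (the zinc-finger factor Sp8, by 2.53 on the log2 scale) and none was lowered. Without normalization 2 were lowered in that step and the median was −0.80. From ES to Day7 none was raised and 1 was lowered (Fgf17, a growth factor of the isthmus, at least 3.59-fold). En1, the close relative of En2, was not well above background on any array, and Wnt1 and Fgf8, which maintain the isthmus, had log2 changes of −0.67 and 0.04 from ES to Day7. The median log2 change of the list was −0.17 in Day3 and −0.52 in Day7.

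More hindbrain genes were raised than lowered, while Egr2 was lowered. From ES to Day3, 4 of 8 genes with a value were raised and none was lowered. The RA-degrading enzyme Cyp26b1 rose 32.7-fold and the homeobox gene Gbx1 rose by 2.42 on the log2 scale. Without normalization the same step had 3 raised and 3 lowered. From ES to Day7, 6 of 8 were raised and none was lowered, with a median log2 change of 2.88. Cyp26b1 stood 22.1-fold above ES. Several genes of this list are also used elsewhere in the nervous system, and the arrays do not tell which cells made them.

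Among the tail bud genes, 3 of 10 with a value were raised from ES to Day3 and 1 was lowered. Cyp26a1, an RA-degrading enzyme and an RA target like Cdx1, rose 477-fold and the signal Gdf11 rose by 1.45 on the log2 scale, and the mesoderm factor T (Brachyury) fell at least 3.85-fold. Without normalization the same step had 1 raised and 3 lowered, and after the normexp correction 1 and 1. From ES to Day7, 2 were raised and 3 lowered, and without normalization 4 and 3. Nkx1-2 rose 58.2-fold, Cyp26a1 stood 1.58 above ES on the log2 scale, and T was at least 5.86-fold below it. Cyp26a1 and Cdx1 did not keep the same course: from Day2 to Day4 Cyp26a1 went from 13.66 to 15.23 on the log2 scale and Cdx1 from 13.82 to 11.45. Wnt3a, a tail bud signal, was not well above background on any array, as Cdx4 was not.

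**Figure D4:**
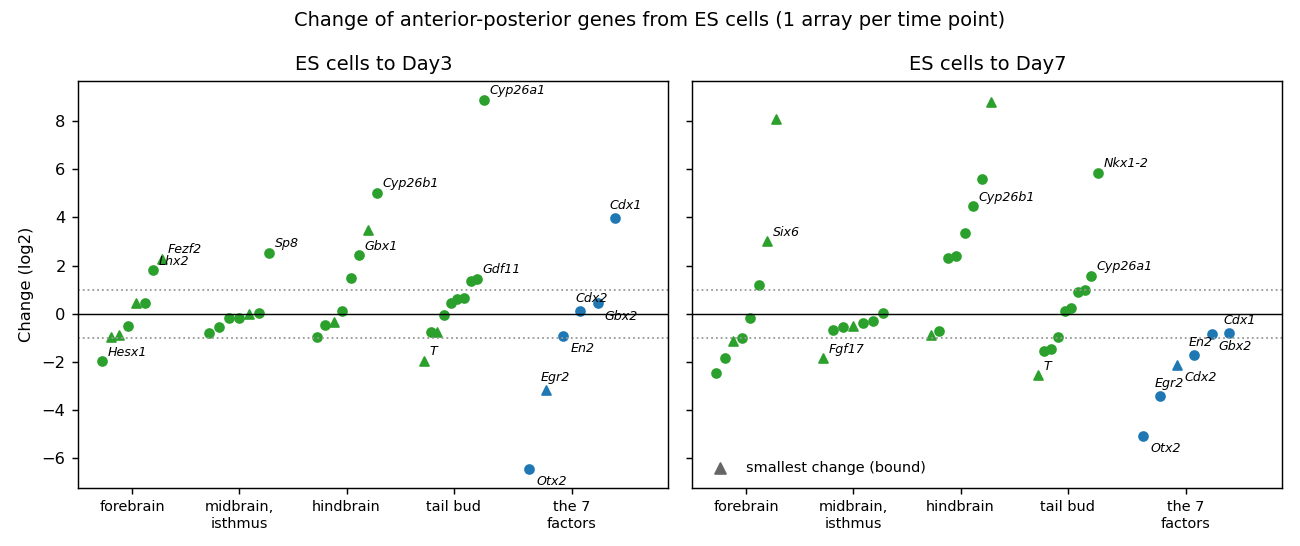
Log2 change from ES (vertical axis) to Day3 (left) and to Day7 (right) of the genes with a value in 4 lists of regional genes (green) and of 6 of the 7 factors (blue), 1 array per time point. Triangles are bounds after quantile normalization where 1 array was not well above background, and dotted lines mark 2-fold. In Day7, 6 of 8 hindbrain genes lie above the upper line, while Otx2, Egr2, En2 and Cdx2 lie below the lower one.

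The genes with the most similar course were listed for the 6 factors that were well above background on at least 3 arrays. Likeness was the mean absolute difference between log2 values over the 5 arrays, each gene centred on its own mean, so a small value means a like course and nothing about function or control. For Otx2 the nearest of 13466 genes were Fgf5 (0.66), Glod5 (0.68) and Pou3f1 (0.86). Fgf5 and Pou3f1 are known from the epiblast, and Fgf5 ran from 11.04 in ES to 6.10 in Day4. For Cdx1 they were Ccdc88b (0.57), Pm20d1 (0.59) and Clgn (0.62), none of them as near as the genes closest to Gbx2 or En2. Fgf5 stayed among the 3 nearest to Otx2, and Ccdc88b and Clgn among those nearest to Cdx1, in each rescaling of all 5 arrays that was tried.

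For the other factors the nearest genes depended on the arrays or the scaling used. Over all 5 arrays the measure takes in the Day3 signal of Egr2 and the Day7 signal of Cdx2, which were not well above background, and over the 4 arrays on which each was, 0 of its 3 nearest genes remained. Their nearest genes are therefore not named. Gbx2 was nearest to Dhrs7b (0.05) and En2 to Fmn1 (0.04). With the arrays aligned on their 75th percentile, 1 of the 3 genes remained for Gbx2 and 0 for En2.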

How the data were processed

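RNA from 5 samples was labelled with Cy3 and hybridised to 1 array each. The authors deposited scanner files from Agilent Feature Extraction 10.5.1, in which each spot's intensity was background-subtracted and not yet normalized across arrays. The authors also deposited a table of log2 values, which equalled the log2 median spot intensity minus a constant near the 75th percentile of the array for at least 99.5% of probes within 0.01. Control spots and outlier spots were left out, log2 intensities were averaged per probe, and arrays were quantile-normalized in limma 3.58.1 (R 4.3.3), after the Quantile analysis named in the study. Further steps used Python 3.11.15, numpy 2.4.6, pandas 2.3.3 and matplotlib 3.10.9.

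Of 55681 probes, 26300 matched 19897 symbols through RefSeq accessions of GRCm38.p6. The array design cites NCBI37, so this table gave names and no positions. The brightest probe stood for its gene. Genes whose brighter side did not exceed the level set for the dim side entered medians as a change of 0. The members and lists were chosen with earlier results of these data known. Named were all members, up to 3 genes per regional list with the largest change to Day3 and to Day7, 3 genes most like each member, and cell type markers, of which some are not reported here. Other genes were named after their values were seen. The alternatives were a 75th percentile shift, no normalization, normexp (offset 50) before quantile normalization, normalization without Day2, the deposited log2 values, a different detection flag, dim probes left unfiltered, genes detected on both arrays alone, an ERCC floor, the mean over probes, and thresholds of 1.5-fold and 4-fold. Likeness over the arrays on which a gene was detected was added after seeing the data. The number of arrays limits the precision. The steps that give changes, bounds and calls were tested on data simulated from the normalized ES array, with changes placed in bright probes only. Normalization and the flag of the scanner software were not part of that test.

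Besides the motifs described, direct repeats of AGGTCA with 2 and of AGTTCA with 5 bases between, pairs CC and GG with 6 bases between, the Tcf motif CTTTGA and its longer form CTTTGAT, the bicoid-type motif TAATCC, the Sp motif GGGCGG, the box CCAAT, the caudal-type form TTTATNG, the box TATAAA, the Gli motif GACCACCCA, the Sox motif CATTGT and the STAT motif TTCNNNGAA were searched on both strands. The CArG box was taken as CC and GG with 6 bases of A or T between. AGGTCA lies within its repeats, CTTTGA within CTTTGAT and the CArG box within CC and GG, and TTTATG and TTTATNG can overlap.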

Additional observations from a re-analysis of the deposited data

Results flagged for a closer look

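On the Day2 array 64.6% of the 96 ERCC probes, which match no mouse sequence and lie outside the measurement of the 7 factors, passed the background flag, compared with 7.29% in ES. The log2 levels of Egr2 and Cdx2 on Day2 lay under the 95th percentile of those probes on that array, and the other 4 factors with a signal there lay above it.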

How the results depend on the processing

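No paired analysis was possible because there was a single array per time point, and for the same reason no array could be left out of a group. A slide block was not run, since the other slide held Day7 and nothing else. The mean over probes could not change a value, since each factor has 1 probe, and the deposited values nearly repeat the 75th percentile shift. Without both, over 403 recomputed changes of the 6 factors other than Cdx4, 366 kept their side of the threshold, 21 newly passed it and 15 no longer passed it. Many of the 403 could not differ from the reported value. The ERCC floor left every change of the 6 factors as reported. The settings for the flag and for dim probes cannot change Otx2, Gbx2, En2 or Cdx1, which were well above background on all arrays. The sign turned in 11 of the 403, of which 10 were changes under 2-fold of Gbx2, En2 and Cdx2 and 1 was a change past 2-fold. The last was Gbx2 from Day4 to Day7, at 0.17 on the log2 scale without normalization in place of −1.16. The count of factors lowered from ES to Day3 was 1 (Otx2) in place of 2 when genes had to be detected on both arrays, which leaves Egr2 out. The count raised from ES to Day2 was 2 (Gbx2 and Cdx1) in place of 1 at 1.5-fold, and the count lowered from ES to Day4 was 1 (Otx2) in place of 4 at 4-fold. Cdx4 had changes past 2-fold only under the other detection flag or with no filter on dim probes, such as −2.21 from ES to Day2. The call of Cdx2 from Day4 to Day7, a bound of −0.93, changed in 6 of 11 settings: it was −1.01 with Day2 left out of the normalization, −1.26 with the 75th percentile shift or the deposited values and −3.49 with the other flag or no filter, and it passed the 1.5-fold threshold. Without normalization no fold could be given for it. Without normalization, falls from Day2 to Day3 past 2-fold were also found for Gbx2 (−1.04), En2 (−1.21), Egr2 (−2.12), Cdx1 (−1.52) and Cdx2 (−1.30), and the median of all genes moved by −0.81 there. The signal over background limited what could be said of Cdx4 on all arrays, of Egr2 in Day3 and of Cdx2 in Day7.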

Other observations

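From ES to Day2, 3 of 12 forebrain genes with a value were raised and 2 lowered, and 4 of 8 midbrain and isthmus genes were raised and none lowered, where 8.82% of all genes were raised and 11.3% lowered. The genes given here were chosen after their values were seen, and genes of the hindbrain and tail bud lists, such as Tbx20 and Wnt8a, were highest on that array as well. Rax, the homeobox gene of the early eye field, had log2 levels of 5.80 in ES, 11.56 in Day2, 6.26 in Day3, 6.47 in Day4 and 4.64 in Day7, where it was not well above background. Rax was thus 54.4-fold above ES in Day2 and 39.5-fold lower again in Day3. Emx2, a cortical homeobox gene, stood at 8.07 in Day2, at least 8.34-fold above ES, where it was not well above background. Of the isthmus genes, the paired-box factor Pax2 had 5.86 in ES, 8.70 in Day2 and 5.69 in Day3, and the growth factor Fgf8 had 7.50, 9.72 and 7.53. The same array had Otx2 at 8.76, below its ES level, and the high share of ERCC probes given above. The part of that array in these values was not tested.

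In the hindbrain list, Cyp26b1 was highest in Day4, with log2 levels of 6.15 in ES, 9.37 in Day2, 11.18 in Day3, 14.71 in Day4 and 10.62 in Day7. Nkx1-2, a tail bud homeobox gene, had 5.11, 3.64, 6.49, 9.88 and 10.98 at the same time points, so it was highest in Day7, where Cdx2 was not well above background and Cdx1 was below its ES level.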
